A study of Mus musculus with 6 samples.

Results

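The transcripts of 10 genes of the epithelial-to-mesenchymal transition (EMT) were measured in the primary ovarian tumors of WT and *Tgm2* knockout mice. The genes were taken by symbol from a given list, which holds the transition transcription factors *Snai1*, *Snai2*, *Twist1*, *Twist2*, *Zeb1* and *Zeb2*, the cadherins *Cdh1* and *Cdh2*, vimentin (*Vim*) and *Epcam*. All 10 had a row in the table of 20076 genes, and all 10 were among the 19667 genes that passed the filter on low values. The rule that chose them uses no measured value.

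The series holds bulk RNA-seq of whole primary tumors from 3 WT and 3 *Tgm2* knockout (*Tgm2*-/-) mice, collected 6 weeks after implantation and labelled as numbered replicates of each genotype, with no identifiers of the mice. All 6 mice were young adults that carried the same cancer cells, the mouse ovarian line ID8 with *Trp53* and *Brca1* knocked out, placed by injection into the ovarian bursa. *Tgm2* encodes transglutaminase 2, a protein crosslinking enzyme that has been linked to EMT in ovarian cancer cells, and the comparison asks how tumors differ when the host lacks it. Only the host lacks the gene: the injected ID8 cells are *Tgm2* competent, and nothing in the sources used here says whether the ID8 line is 1 clone. The labels give "cancer cells" as the cell type, while the RNA came from the whole tumor with its stroma, vessels and immune cells. In such bulk RNA, fewer cells of a type and less RNA per cell cannot be told apart.

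EMT is the process by which epithelial cells lose their contacts and polarity and take on a motile, fibroblast-like form. Transcription factors of the Snail, Twist and Zeb families drive it, in part by repressing the E-cadherin gene *Cdh1* through E-box sequences, while N-cadherin (*Cdh2*) and vimentin replace epithelial proteins. Ovarian surface cells, from which ID8 derives, are known to hold epithelial and mesenchymal traits side by side, and stromal cells of a tumor express the mesenchymal genes on their own account.

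The values are normalized counts, that is, estimated reads per gene divided by a size factor of each library, and they are not corrected for gene length. They summed to 34801694, 35325875 and 33916288 in WT tumors 1, 2 and 3 and to 32316613, 35827822 and 37717165 in knockout tumors 1, 2 and 3. The depth in whole reads could not be read from these values. Fold changes are on the log2(value + 1) scale, knockout minus WT, and were tested with limma across all tested genes with Benjamini-Hochberg adjustment. A gene was called changed at an adjusted p below 0.05 with an absolute log2 fold change above 1. The p-values measure the spread between these 6 tumors. In limma the variance of each gene was moderated toward a trend over all genes. The SEs and intervals from limma use these moderated variances and not the spread of the gene alone.

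*Tgm2* itself, on chr2:158116402-158146436 of GRCm38, was measured first, since it checks the genotype labels. Its values were 14978, 12154 and 13179.7 normalized counts in the WT tumors against 5853, 6071 and 8157 in the knockout tumors. Every knockout tumor was below every WT tumor, but none was near 0. The log2 fold change was -1.02 (SE 0.22), which did not pass in limma (adjusted p = 0.391, unadjusted p = 0.0015), and the exact permutation test gave the smallest p that 3 against 3 tumors allow, 0.1. A neighboring gene on the opposite strand, *Rprd1b*, shares 8.03% of the *Tgm2* exon bases and a noncoding one, *Gm20412*, 13.74%, and the sources used here do not say whether the libraries kept the strand.

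None of the 10 EMT genes passed the test between the genotypes. In limma, 0 of 10 passed the limits, and 0 of 10 had an unadjusted p below 0.05. Over all tested genes, 20 passed the limits (0.102%), all of them higher in knockout tumors, and 1137 had an unadjusted p below 0.05 (5.78%), of which 668 were higher (3.4%) and 469 lower (2.38%) in knockout tumors. The groups overlapped for each of the 10 genes, whereas they did not overlap for 2067 of all tested genes (10.5%). The median log2 fold change was 0.11 over the 10 genes (0.07 to 0.28 with 1 tumor left out) and -0.03 over all tested genes. The smallest adjusted p of any of the 10 was 0.891 in this fit. What set the tumors apart was a spread within the genotypes, largest for *Cdh1* and *Epcam* and for these 2 genes wider in WT. For *Snai2*, *Twist1*, *Zeb1* and *Cdh2* the SD of the log2 values was larger in knockout tumors. *Cdh1* varied 29.4-fold and *Epcam* 88.9-fold between the lowest and the highest tumor, both of them WT, in the same order of tumors. Among the knockout tumors *Cdh1* ran from 348 to 1876 and *Epcam* from 201 to 1307 normalized counts. Over all 6 tumors the other 8 genes varied between 1.71-fold (*Zeb1*) and 3.22-fold (*Cdh2*).

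**Figure D1:**
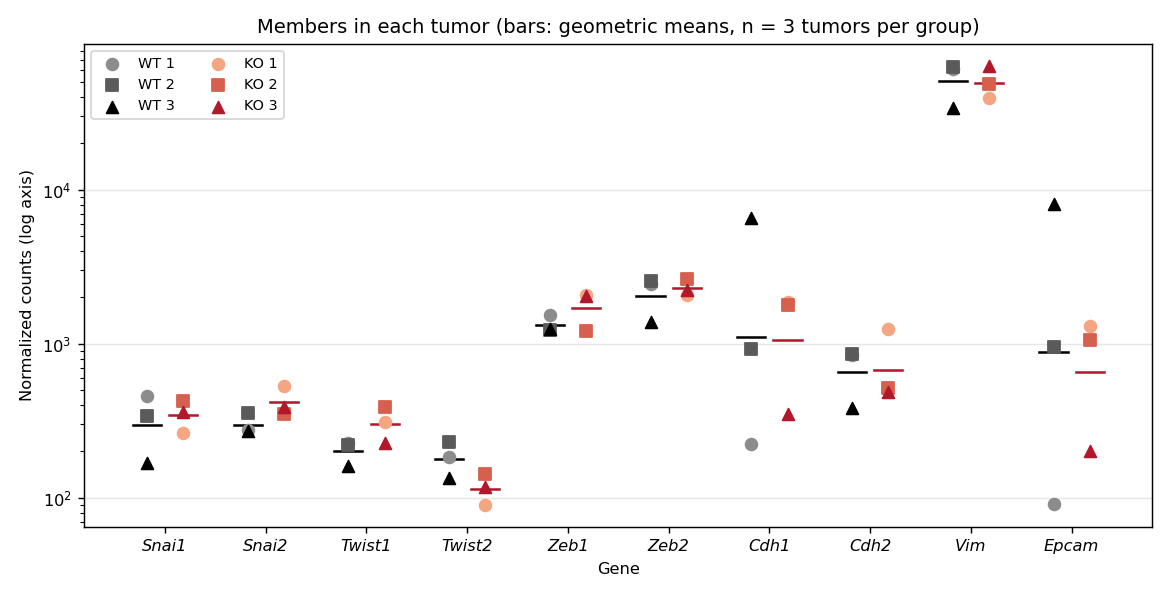
Normalized counts (log axis) of the 10 EMT genes in each of the 3 WT (gray to black) and 3 *Tgm2* knockout (orange to red) tumors, with a bar at the geometric mean of each group. WT tumor 3 (black triangle) is the highest tumor for *Cdh1* and *Epcam* and the lowest of all 6 for *Snai1*, *Snai2*, *Twist1*, *Zeb2*, *Cdh2* and *Vim*.

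Levels can be set beside each other only per length. Divided by the length of all annotated exons, the mean over the 6 tumors was 10839 normalized counts per kb for *Vim*, which was the most abundant of the 10 transcripts. *Epcam* followed at 886 and *Cdh1* at 428 per kb, both of which are means that WT tumor 3 dominates. The means of the transcription factors ran from 207 per kb for *Snai1* through 179 for *Snai2*, 157 for *Twist1*, 151 for *Zeb1* and 111 for *Zeb2* to 47.1 for *Twist2*, with *Cdh2* at 89.7. This order did not hold in every tumor. In WT tumor 1 *Epcam* was at 41.2 and *Cdh1* at 49.0 per kb, below *Snai1* at 283 and *Zeb1* at 151. In knockout tumor 3 *Epcam* was at 91.7 and *Cdh1* at 76.1 per kb, again below *Snai1* at 221 and *Zeb1* at 197. Exon lengths of *Zeb1* and *Zeb2* combine 12 and 29 annotated transcripts. Those of *Vim*, *Epcam*, *Cdh1*, *Cdh2* and *Twist2* combine 6, 5, 3, 3 and 2. The values per kb of these genes can be low estimates if only some of those transcripts are made. *Snai1*, *Snai2* and *Twist1* have 1 annotated transcript each.

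The Snail family came first among the regulators. *Snai1*, on chr2:167538195-167542814, encodes Snail, a zinc finger repressor of *Cdh1*. It was listed at 458, 338 and 167 normalized counts in the WT tumors against 265, 422 and 358 in the knockout tumors. The highest and the lowest of the 6 tumors were both WT, and the knockout tumors lay between them. The group means were 321 ± 146 and 348 ± 78.9 (SD, n = 3 each), and the log2 fold change in limma was 0.21 (SE 0.41, adjusted p = 0.953).

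*Snai2*, on chr16:14705852-14709385, encodes Slug, a close relative that binds the same E-boxes. *Snai2* was listed at 276, 354 and 271 normalized counts in the WT tumors against 529, 351 and 391 in the knockout tumors. A single WT tumor, number 2, exceeded the lowest knockout tumor, and did so by less than 3 normalized counts. The means were 300.3 ± 46.7 and 424 ± 93.5 (SD, n = 3 each), a log2 fold change in limma of 0.48 (SE 0.29, adjusted p = 0.891), and the exact permutation test gave p = 0.2.

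The Twist genes encode basic helix-loop-helix factors that bind E-boxes and are made by mesenchymal cells in development. *Twist1*, on chr12:33957671-33959829, was listed at 228, 221 and 161 normalized counts in the WT tumors against 309, 390.5 and 228 in the knockout tumors. Knockout tumor 3 matched WT tumor 1, and the other two knockout tumors were above all WT tumors. The means were 203 ± 36.5 and 309 ± 81.4 (SD, n = 3 each), with a log2 fold change in limma of 0.58 (SE 0.34, adjusted p = 0.891).

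*Twist2*, on chr1:91801461-91848028, differed in the opposite sign. It was listed at 185, 229 and 134 normalized counts in the WT tumors against 90.0, 143 and 117 in the knockout tumors. WT tumor 3 lay below knockout tumor 2, and otherwise the WT values were higher. The means were 182 ± 47.8 and 117 ± 26.7 (SD, n = 3 each), with a log2 fold change in limma of -0.63 (SE 0.40, adjusted p = 0.891). The antisense gene *Gm29100* covers 46.53% of the *Twist2* exon bases, so reads from these shared bases could not be told apart if strand was not kept.

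The balance of the Twist genes was looked at after their values had been seen. The log2 ratio of *Twist2* to *Twist1* was -0.30, 0.05 and -0.27 in the WT tumors against -1.77, -1.44 and -0.96 in the knockout tumors. All 3 knockout ratios were below all 3 WT ratios. No test was made of this ratio, because it was chosen for its pattern, and no background was computed over other pairs of genes.

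The Zeb genes encode large zinc finger and homeodomain repressors of epithelial genes. *Zeb1* was listed at 1546, 1226 and 1244 normalized counts in the WT tumors against 2064, 1207 and 2027 in the knockout tumors. Knockout tumors 1 and 3 were the highest of the 6, and knockout tumor 2 was the lowest. The means were 1339 ± 179.7 and 1766 ± 485 (SD, n = 3 each), with a log2 fold change in limma of 0.37 (SE 0.26, adjusted p = 0.894).

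*Zeb2*, the relative of *Zeb1* with the longest annotated exons of the 6 regulators, was listed at 2447, 2547 and 1375 normalized counts in the WT tumors against 2083, 2646 and 2234 in the knockout tumors. WT tumor 3 stood below the other 5 tumors, which lay close together. The means were 2123 ± 649.6 and 2321 ± 291 (SD, n = 3 each), with a log2 fold change in limma of 0.17 (SE 0.27, adjusted p = 0.939). The antisense gene *Zeb2os* shares 3.27% of the *Zeb2* exon bases.

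Of the 6 regulators, 5 thus had a positive fold change and *Twist2* a negative one, none of them past the limits. The sign for *Snai1* and *Zeb2* rested on WT tumor 3. Without that tumor, the log2 fold change was -0.20 for *Snai1* and -0.11 for *Zeb2*.

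E-cadherin varied widely within each genotype. *Cdh1*, on chr8:106603351-106670246, encodes the adhesion protein of epithelial junctions. Its transcript was listed at 224, 919.7 and 6588 normalized counts in the WT tumors against 1876, 1786 and 348 in the knockout tumors. Both extremes were WT tumors, with WT tumor 3 far above and WT tumor 1 below all others, and knockout tumor 3 was close to the low end. The means were 2577 ± 3490.5 and 1337 ± 857 (SD, n = 3 each), so the SD of the WT group exceeded its mean. The log2 fold change in limma was -0.07 (SE 1.13, 95% interval -2.67 to 2.52, adjusted p = 0.995), an interval that holds large differences in either direction. The residual SD of *Cdh1* on the log2 scale, 1.99, was larger than that of 95.9% of tested genes.

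*Epcam*, on chr17:87635979-87651129, encodes an adhesion molecule of the epithelial surface that is widely used to mark carcinoma cells. *Epcam* was listed at 90.5, 959 and 8047 normalized counts in the WT tumors against 1307, 1063 and 201 in the knockout tumors. The order of the 6 tumors was the one seen for *Cdh1*, with WT tumor 3 highest, then knockout tumors 1 and 2, WT tumor 2, knockout tumor 3 and WT tumor 1. The means were 3032 ± 4365 and 857 ± 581 (SD, n = 3 each). The log2 fold change in limma was -0.44 (SE 1.43, 95% interval -3.71 to 2.83, adjusted p = 0.973), and the residual SD of 2.51 was larger than that of 98.1% of tested genes.

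For both genes the sign of the genotype difference depended on single tumors. Without WT tumor 3 the log2 fold change was 1.21 for *Cdh1* and 1.14 for *Epcam*, and without WT tumor 1 it was -1.22 for *Cdh1* and -2.08 for *Epcam*. Without knockout tumor 3 it was 0.72 for *Cdh1* and 0.41 for *Epcam*. With any of these tumors left out, neither gene passed the limits in limma, and the smallest adjusted p over all alternatives was 0.731 for *Cdh1* and 0.664 for *Epcam*.

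**Figure D2:**
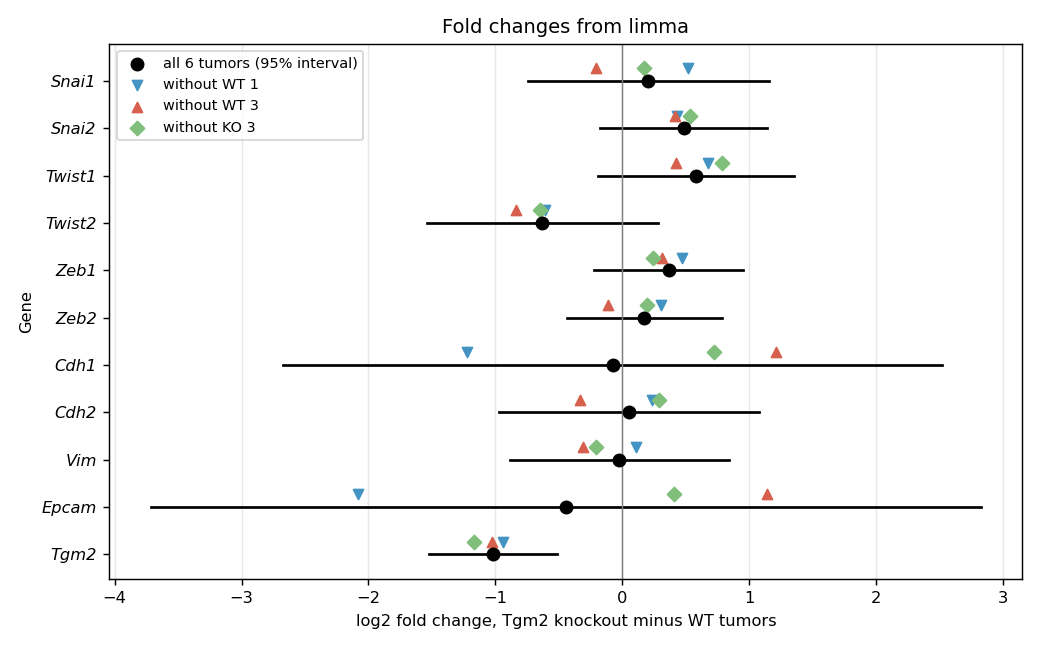
Log2 fold change (knockout minus WT) of the 10 EMT genes and *Tgm2* in limma with all 6 tumors (black, with 95% interval) and with WT tumor 1, WT tumor 3 or knockout tumor 3 left out (colored). The intervals of all 10 EMT genes cross 0, and the estimates of *Cdh1* and *Epcam* move from -1.22 to 1.21 and from -2.08 to 1.14 with the tumor that was left out.

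*Cdh1* and *Epcam* moved together across the 6 tumors. Their log2 values had Pearson's r = 0.986 (exact permutation p = 0.00278, adjusted over 6 pairs of EMT genes p = 0.0167) and Spearman's rho = 1 (exact permutation p = 0.00278, adjusted p = 0.0167), where 0.00278 is the smallest p that 6 tumors can give. Without the 2 tumors farthest from the *Cdh1* median, WT tumors 1 and 3, r was 0.949 over 4 tumors. The 6 tumors share the injected line, and what cells of other types contributed to these correlations was not tested.

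The other 5 pairs showed no relation past the threshold, with the lowest adjusted p of 0.525 for the rank correlation of *Zeb1* with *Zeb2* (exact permutation, rho = -0.66, r = 0.03). *Snai1* and *Snai2* had r = 0.04 (-0.89 without WT tumors 1 and 3), *Twist1* and *Twist2* had r = -0.26 (-0.79 without knockout tumor 2 and WT tumor 3, the farthest from the *Twist1* median), and *Vim* and *Cdh2* had r = 0.18. *Zeb1*, a repressor of *Cdh1*, had r = -0.40 with it (exact permutation p = 0.4, adjusted p = 0.978). *Zeb1* was high in knockout tumor 1, where *Cdh1* was the second highest of the 6, and also in knockout tumor 3, where *Cdh1* was the second lowest.

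**Figure D3:**
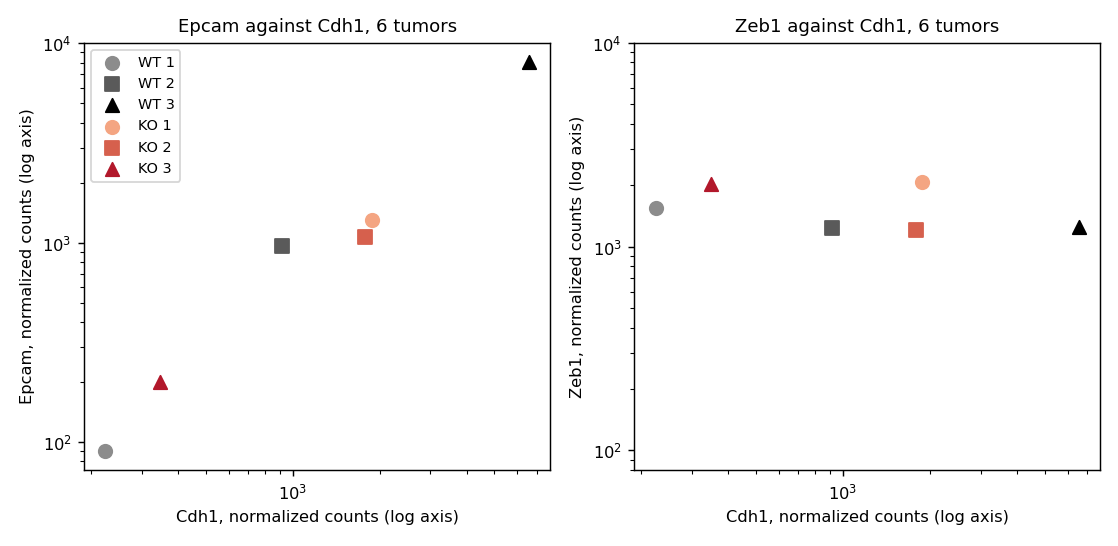
*Epcam* (left) and *Zeb1* (right) against *Cdh1*, all in normalized counts on log axes, 1 point per tumor. *Epcam* follows *Cdh1* from WT tumor 1 (90.5 and 224) to WT tumor 3 (8047 and 6588), whereas *Zeb1* stays between 1207 and 2064 across the same range.

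The start of the *Epcam* gene is shown because *Epcam* and *Cdh1* moved together and because the Snail and Zeb factors bind E-boxes of the form CACCTG, which reads CAGGTG on the other strand. Windows of 300 bases, from 250 before to 50 after the start of a gene, were searched on both strands in RefSeq sequence of build GRCm38.p6. A window was used for 6 of the 10 genes (9 windows, 4 of them of *Zeb2*), while *Cdh1*, *Snai2*, *Zeb1* and *Cdh2* were not searched here. Of the genes searched, *Epcam* and *Snai1* each had a window with a match. Over all 32851 windows, 20.2% held at least 1 match and 2.88% held 2 or more. The 250 bases before the start are given 5′ to 3′ with the matches in capitals, for *Epcam* at chr17:87635729-87635978 (plus strand) and, for comparison, for *Snai1* at chr2:167537945-167538194 (plus strand).
Epcam: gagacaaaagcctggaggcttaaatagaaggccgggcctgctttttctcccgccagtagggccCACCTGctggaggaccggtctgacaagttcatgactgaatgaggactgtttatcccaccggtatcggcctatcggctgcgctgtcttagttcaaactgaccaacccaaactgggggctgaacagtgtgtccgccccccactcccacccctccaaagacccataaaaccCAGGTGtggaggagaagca
Snai1: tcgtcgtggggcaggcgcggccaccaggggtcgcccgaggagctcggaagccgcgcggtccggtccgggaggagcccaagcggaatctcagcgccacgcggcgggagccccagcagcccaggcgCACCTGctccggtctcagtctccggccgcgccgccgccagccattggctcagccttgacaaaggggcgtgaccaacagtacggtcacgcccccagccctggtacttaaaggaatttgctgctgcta
The *Epcam* window had 2 matches, which begin at positions -187 and -19 relative to the start, and the *Snai1* window had 1, at position -126. A match describes the letters of the window only, and no binding was measured in these tumors.

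N-cadherin and vimentin, the mesenchymal counterparts, varied far less than *Cdh1* and *Epcam*. *Cdh2* was listed at 849, 859.5 and 386 normalized counts in the WT tumors against 1239.7, 517 and 489.7 in the knockout tumors. WT tumor 3 was the lowest and knockout tumor 1 the highest of the 6. The means were 698 ± 271 and 749 ± 425 (SD, n = 3 each), with a log2 fold change in limma of 0.05 (SE 0.45, adjusted p = 0.990).

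*Vim*, on chr2:13573927-13582826, encodes the intermediate filament of mesenchymal cells. The *Vim* transcript was listed at 60519.8, 62432 and 33882 normalized counts in the WT tumors against 39505, 48528 and 63591 in the knockout tumors. Again WT tumor 3 was the lowest, and the ranges of the groups overlapped almost wholly. The means were 52278 ± 15959.9 and 50541 ± 12169 (SD, n = 3 each), with a log2 fold change in limma of -0.02 (SE 0.38, adjusted p = 0.995).

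The ratios of the mesenchymal to the epithelial genes separated tumors, not genotypes. The log2 ratio of *Cdh2* to *Cdh1* was 1.91, -0.10 and -4.09 in the WT tumors against -0.60, -1.79 and 0.49 in the knockout tumors. The log2 ratio of *Vim* to *Epcam* was 9.37, 6.02 and 2.07 in the WT tumors against 4.92, 5.51 and 8.30 in the knockout tumors. Both ratios were highest in WT tumor 1 and lowest in WT tumor 3, with all 3 knockout tumors between them. WT tumor 1 was the lowest tumor for *Cdh1* and *Epcam* but the highest for neither *Cdh2* nor *Vim*. Its ratios were therefore high through the low values of *Cdh1* and *Epcam*.

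The opposite standing of WT tumor 3 among the members, highest for *Cdh1* and *Epcam* and lowest for 6 of the other 8, is a description made after the values had been seen. Over all tested genes, WT tumor 3 was the highest tumor for 5295 (26.9%) and the lowest for 4314 (21.9%).

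Other genes of the same pathway were read from 7 lists written by symbol, and in limma none of their 130 tested genes passed the limits. The first list held 13 further transcription factors of EMT, of which 0 had an unadjusted p below 0.05 in either direction. Its most abundant genes, by the mean normalized count and not per length, here and in the lists that follow, were *Sox4*, *Wwtr1* and *Yap1*. The log2 fold changes were 0.06 (SE 0.21) for *Sox4*, 0.34 (SE 0.27) for *Wwtr1*, a partner of TEAD factors, and 0.10 (SE 0.18) for *Yap1*, its relative. The median of the list was 0.17.

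The factors that maintain the epithelial state followed *Epcam* in part. Of 15 such genes, 0 had an unadjusted p below 0.05 in limma, and the median log2 fold change was -0.28 (0.47 without WT tumor 3). WT tumor 3 was the highest tumor for 8 of the 15. The genes *Grhl2*, *Esrp1*, *Ovol1*, *Ovol2* and *Elf5*, 5 of the 15, were highest in WT tumor 3 and had WT tumor 1 and knockout tumor 3 as the lowest pair of tumors, which is the order pattern of *Epcam* and was found for 946 of all tested genes (4.81%). Of these, *Ovol1* was listed at 0 in WT tumor 1 and *Elf5* at 0 in knockout tumor 3. *Elf5* was low throughout, at 46.4 in WT tumor 3 and 42.5 in knockout tumor 2. *Grhl2*, a factor that activates epithelial junction genes, was listed at 12.3, 93.5 and 954 normalized counts in the WT tumors against 183, 159 and 18.7 in the knockout tumors. *Esrp1*, which sets epithelial splice forms, was listed at 14.2, 138 and 1533 in the WT tumors against 416, 276 and 4.10 in the knockout tumors. The range from the lowest to the highest tumor was 77.6-fold for *Grhl2* and 374-fold for *Esrp1*, and the groups overlapped for both.

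None of the 3 most abundant epithelial regulators shared the whole order pattern. *Klf4* was level across the tumors, from 2444 to 4152 normalized counts. *Elf3* was listed at 9565 in WT tumor 3 and at 537 to 2036 elsewhere. *Ehf* ranged from 609 to 2244 with WT tumor 1 second highest.

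The genes of epithelial junctions and the apical membrane showed the order pattern of *Epcam* in part as well. It was found for 11 of 25 genes, among them *Cldn7*, *Ocln*, *Rab25*, *Spint2* and *Prss8*, and WT tumor 3 was the highest tumor for 19 of the 25. *Cldn7*, a claudin of tight junctions, was listed at 11.1, 513 and 3685 normalized counts in the WT tumors against 572, 588 and 52.8 in the knockout tumors. *Spint2*, a membrane protease inhibitor, was listed at 515, 1619 and 8109 in the WT tumors against 2751, 2585 and 606 in the knockout tumors. The most abundant genes were *Cgn*, the junction protein cingulin, at 3927 to 8369, and *Mal2*, an apical transport protein, at 2091 to 7036, followed by *Spint2*. *Cgn* was highest in knockout tumor 3 and *Mal2* in WT tumor 2, so neither shared the order.

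In limma, 3 of these 25 genes had an unadjusted p below 0.05, all lower in knockout tumors, as were 469 of all tested genes (2.38%). The median log2 fold change of the list was -0.22, and it was 0.51 without WT tumor 3 and -1.15 without WT tumor 1. *Cldn4*, another claudin, was listed at 665, 198 and 1881 normalized counts in the WT tumors against 68.2, 71.6 and 23.7 in the knockout tumors. The groups did not overlap, as for 1048 of all tested genes that were lower in knockout tumors (5.33%). The log2 fold change of *Cldn4* was -3.66 (SE 0.80, adjusted p = 0.406 in limma), so it did not pass the limits. *Dsg2*, a desmosomal cadherin, also did not overlap, at a log2 fold change of -0.77.

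**Figure D4:**
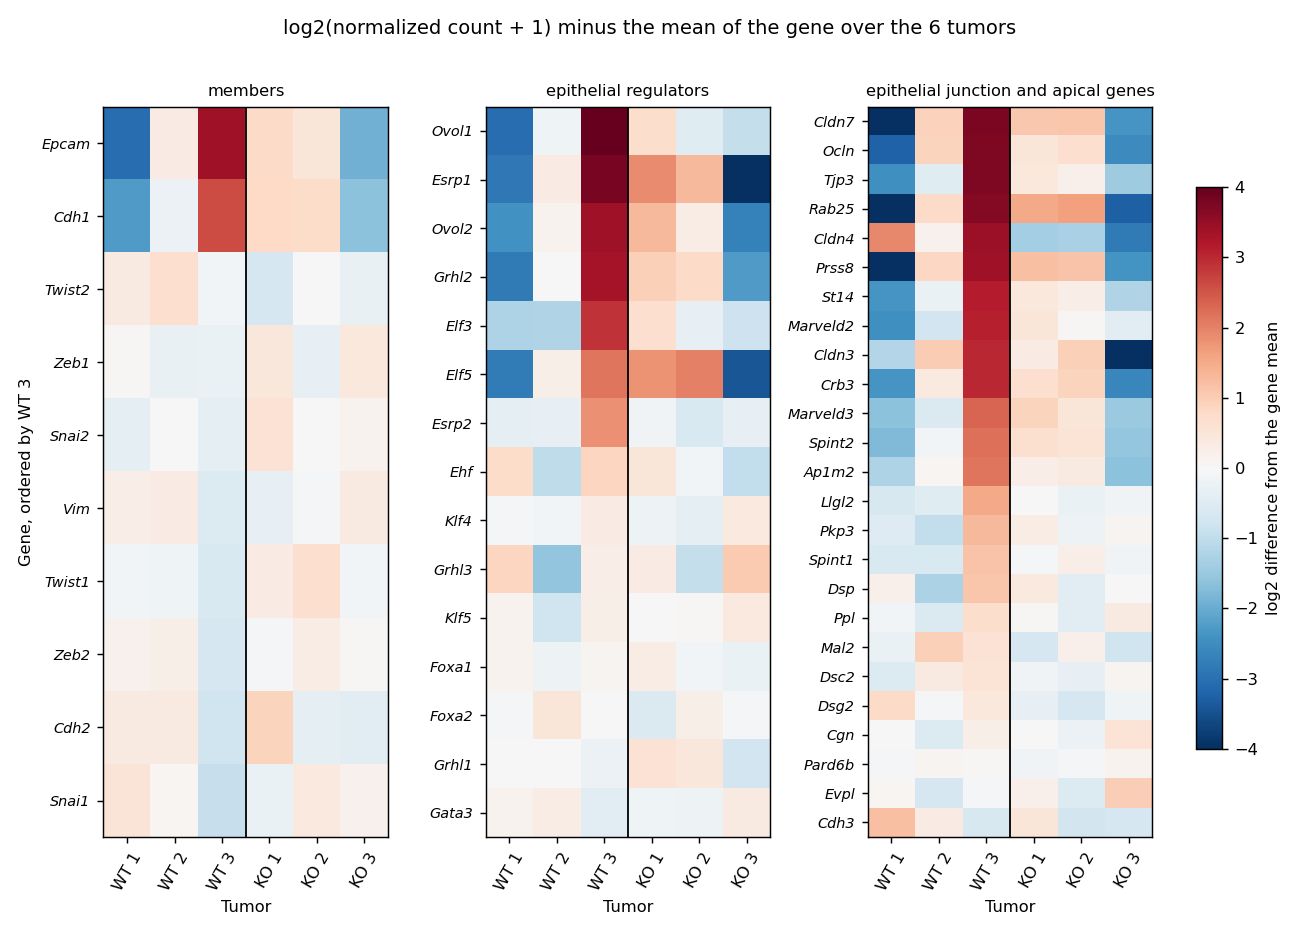
Log2(normalized count + 1) minus the mean of each gene over the 6 tumors (color, limited to the range from -4 to 4), for the 10 EMT genes, the 15 epithelial regulators and the 25 junction and apical genes, ordered within a panel by WT tumor 3. *Epcam*, *Cdh1*, 5 regulators and 11 junction genes are high in WT tumor 3 and low in WT tumor 1 and knockout tumor 3, and the other 8 members vary between 1.71-fold and 3.22-fold.

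The genes most like *Cdh1* and *Epcam* over the 6 tumors included some of these epithelial genes. Among 12992 genes with a mean of at least 100 normalized counts, those with the highest r with *Cdh1* on the log2 scale were *Spint2* (0.998), *Grhl2* (0.997), *Chdh*, *Hoxb6* and *Alox15*. For *Epcam* they were *Bcl2l15* (0.999), *Letm2*, *Grhl2*, *Arhgef16* and *Chdh*. *Grhl2* and *Chdh* were on both lists. For *Zeb1* the closest genes were *Ankrd9*, *Ibtk*, *Ahi1*, *Synm* and *Thumpd1*, which were high in knockout tumors 1 and 3, and for *Vim* they were *Xkr8*, *Frmd8*, *Uck2*, *Acot7* and *Grb2*. With 6 tumors and so many genes compared, high values of r come from a search and are given as a description.

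The catenins, which tie cadherins to the cytoskeleton, and other classical cadherins had a median log2 fold change of 0.12 over 11 genes. In limma 1 of them, the endothelial cadherin *Cdh5*, had an unadjusted p below 0.05 (log2 fold change 0.75, SE 0.31, adjusted p = 0.829), against 3.4% of all tested genes that were higher at this p. β-catenin (*Ctnnb1*) was listed at 18117, 15169.9 and 23910.1 normalized counts in the WT tumors against 21389, 17744 and 19423 in the knockout tumors. Its range was narrow beside that of *Cdh1*, whose protein it binds. *Ctnnd1* and *Ctnna1*, the next in abundance, had log2 fold changes of 0.13 (SE 0.30) and 0.25 (SE 0.24).

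Mesenchymal matrix, cytoskeleton and motility genes had a median log2 fold change of -0.03 over 29 genes, which at 2 decimals equals that of all tested genes. WT tumor 3 was the highest tumor for 0 and the lowest for 16 of the 29. *Sparc*, a matrix protein and the most abundant of them, was listed at 158052, 172941 and 54661 normalized counts in the WT tumors against 89642, 154147 and 126608 in the knockout tumors. The collagens *Col3a1* and *Col1a1*, next in abundance, had log2 fold changes of 0.57 (SE 0.53) and 0.63 (SE 0.50), and both were lowest in WT tumor 3.

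*Tagln*, an actin-binding protein of smooth muscle and myofibroblasts, was the 1 of 29 mesenchymal genes with an unadjusted p below 0.05 in limma, where 2.38% of all tested genes had such a p and were lower. *Tagln* was listed at 18854, 27320.0 and 23829.9 normalized counts in the WT tumors against 15043, 9948 and 4640.1 in the knockout tumors. All 3 knockout tumors were below all WT tumors, at a log2 fold change of -1.38 (SE 0.41, adjusted p = 0.670). The protease gene *Mmp9* also did not overlap (log2 fold change -0.58), which makes 2 of the 29, a share near the 5.33% of all tested genes that did not overlap and were lower. Markers of smooth muscle and pericytes summed to 50265, 31277 and 19049.5 in the WT tumors against 35123, 15104 and 10689.7 in the knockout tumors, and none of the 8 was listed at 0. These sums overlapped between the groups, and WT tumor 1, the lowest WT tumor for *Tagln*, had the highest sum. Of the 8 markers, 6 had a negative log2 fold change, while *Rgs5* and *Notch3* were at 0.04 and 0.61. *Des*, the most abundant, was the 1 marker with an unadjusted p below 0.05 in limma (log2 fold change -1.70, SE 0.65). The part of these cells in the *Tagln* values was not tested.

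Ligands, receptors and signal transducers that induce EMT had a median log2 fold change of 0.07 over 27 genes. In limma, 3 had an unadjusted p below 0.05 (*Gas6*, *Bmp4* and *Pdgfra*), all higher in knockout tumors, as were 668 of all tested genes (3.4%). *Gas6*, the ligand of the receptor Axl and the most abundant of the list, was listed at 5857, 5171 and 4371 normalized counts in the WT tumors against 19343, 10726 and 9227 in the knockout tumors. All 3 knockout tumors were above all WT tumors, as for 1019 of all tested genes (5.18%), at a log2 fold change of 1.28 (SE 0.30, adjusted p = 0.485). *Bmp4*, *Bmp7* and *Hgf* also did not overlap and were higher in knockout tumors, at log2 fold changes of 0.74, 0.73 and 0.59, while *Jag1* and *Tnf* did not overlap and were lower, at -0.33 and -0.65. These are 4 higher and 2 lower of 27, against 5.18% and 5.33% of all tested genes. The TGF-β components *Tgfbr2* and *Tgfb3*, next in abundance, had log2 fold changes of 0.34 (SE 0.26) and 0.29 (SE 0.34).

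Intermediate filament genes other than *Vim* had a median log2 fold change of -0.42 over 10 genes, and in limma 1 of them (*Des*, lower) had an unadjusted p below 0.05, against 2.38% of all tested genes that were lower at this p. The keratin *Krt8* was listed at 14387, 21948 and 15814 normalized counts in the WT tumors against 10373, 13629 and 14318 in the knockout tumors. The groups of *Krt8* did not overlap, at a log2 fold change of -0.43 (SE 0.26, adjusted p = 0.891 in limma). *Krt19* likewise did not overlap (log2 fold change -0.40), so 2 of the 10 were lower without overlap, against 5.33% of all tested genes, and *Krt18* had a log2 fold change of -0.51 (SE 0.23). Unlike *Cdh1* and *Epcam*, these 3 keratins were abundant in all 6 tumors, at 5251 normalized counts or more, and *Krt8* was lowest in knockout tumor 1.

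The cell types that the tumors could hold were read from 13 further lists of markers. Of the mesothelium and ovarian surface markers, to which the ID8 line is close, *Wt1* was the most abundant, at 13131 to 20641 normalized counts, and the sums over 7 genes were 50661, 52166 and 41378 in the WT tumors against 47144, 38739 and 51069.7 in the knockout tumors. Gut epithelium markers, with sums of 614 at most (*Lgals4* most abundant, *Fabp2* at 0 in WT tumor 3), and pancreatic acinar markers, with sums of 902 at most (*Cela1* most abundant, *Prss2* and *Amy2a5* at 0 in WT tumor 1), were low throughout.

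Oviduct epithelium, which lies beside the injected bursa, is another tissue that expresses *Cdh1* and *Epcam*. The summed values of its 9 markers were 7673, 18166 and 19587 normalized counts in the WT tumors against 49154, 72898 and 8929 in the knockout tumors, none of the 9 was at 0 in any tumor, and *Ovgp1*, the secretory glycoprotein of the oviduct, was the most abundant. *Ovgp1* was listed at 184, 6552 and 9244 in the WT tumors against 37108, 55944 and 91.0 in the knockout tumors. It was low in WT tumor 1 and knockout tumor 3, the tumors that were lowest for *Epcam*, but was highest in knockout tumors 1 and 2 and not in WT tumor 3. *Pax8*, a factor of the oviduct lineage, was listed at 40.9, 169 and 1905 in the WT tumors against 437, 380.3 and 122 in the knockout tumors. The order pattern of *Epcam* was found for 2 of the 9, *Pax8* and *Sox17*. The part of oviduct tissue in the *Cdh1* and *Epcam* values was not tested.

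Stromal and immune markers were present in every tumor. Fibroblast markers summed to 40203, 41886 and 23821 normalized counts in the WT tumors against 47678, 51462 and 38333 in the knockout tumors, with *Dcn* the most abundant of 9, and WT tumor 3 was the lowest tumor for 6 of the 9. Leukocyte markers (7 genes, *Laptm5* most abundant) summed to 29898, 21438 and 16489.5 in the WT tumors against 21229, 38413 and 41309 in the knockout tumors. Macrophage markers (8 genes, *Lyz2* most abundant) were likewise lowest in WT tumor 3 for 6 of 8, with sums from 36732 in knockout tumor 1 to 118822 in knockout tumor 2. WT tumor 3 was also the lowest tumor for *Vim*, *Zeb2* and *Snai1*, as it was for 21.9% of all tested genes. The part of these cell types in the values of those 3 genes was not tested.

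Of all 13 marker lists, 7 had their lowest sum in WT tumor 3, among them lists of stromal, immune, granulosa, fat and dividing cells. Plasma cell markers summed to 15741, 17689.6 and 12874 normalized counts in the WT tumors against 59558.5, 82167 and 86368 in the knockout tumors. *Jchain*, the most abundant of the 8, passed the limits in limma (log2 fold change 4.80, SE 0.29, adjusted p = 0.000989), as did 2 of the 8 in all, against 0.102% of all tested genes. The groups did not overlap for 7 of the 8, all higher in knockout tumors, against 5.18%. White adipocyte markers (12 genes, *Lpl* most abundant) summed to 42835, 55787 and 31466 in the WT tumors against 46616, 166107 and 97383 in the knockout tumors, and 1 of the 12 passed the limits (0.102% of all tested genes). Of the 12, 9 were higher at an unadjusted p below 0.05 in limma (3.4%) and 6 were higher without overlap (5.18%). In a fit with a white adipocyte covariate, 0 genes were higher past the limits, so the calls in both of these lists were lost. That covariate was the mean log2 value of these same 12 markers, all 12 of which were higher on average in knockout tumors. It was thus partly confounded with genotype, and this fit cannot show why the calls were lost. Granulosa cell markers (8 genes, *Inha* most abundant, *Fshr* at 0 in 4 tumors and *Cyp19a1* in 1) summed to 20781 in knockout tumor 1 and to between 5321 and 8899 in the other 5 tumors. Knockout tumor 1 was also the highest tumor for *Snai2*, *Zeb1*, *Cdh2* and *Gas6*, and the part of granulosa cells in those values was not tested. Endothelial markers (8 genes, *Pecam1* most abundant) ranged in sum from 7999.9 to 11955. Genes of dividing cells summed to 26477, 20871 and 8809 in the WT tumors against 18469, 16671 and 27221 in the knockout tumors, and all 8 of them, *Top2a* the most abundant, were lowest in WT tumor 3.

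**Figure D5:**
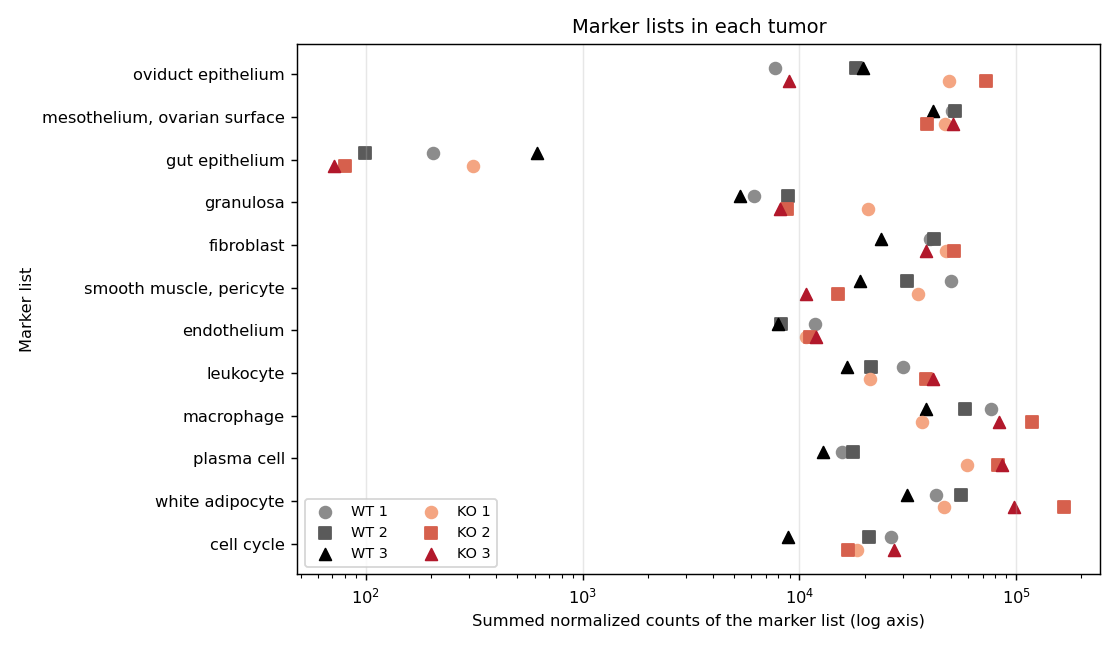
Summed normalized counts (log axis) of 12 marker lists in each of the 3 WT (gray to black) and 3 *Tgm2* knockout (orange to red) tumors, 1 list per row. WT tumor 3 (black triangle) is the lowest tumor for 7 lists (granulosa cells, fibroblasts, endothelium, leukocytes, plasma cells, white adipocytes and dividing cells), and the oviduct list is low in WT tumor 1 and knockout tumor 3 and highest in knockout tumor 2.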

How the data were processed

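RNA of 6 primary tumors (polyA-enriched libraries) was sequenced by the authors. Per the labels' processing notes, transcripts were quantified with kallisto 0.46.2 on GRCm38. The authors mapped transcripts to genes with biomaRt, removed genes with low expression and divided by DESeq2 size factors. The deposited values are therefore a signal (normalized counts per gene). The table is labelled TPM, but its columns sum to between 32316613 and 37717165. The design assumed TPM, and its tests, which use log2 values, were kept. Tumors were grouped by their genotype labels, each column was matched to 1 tumor by name, and 0 columns were left unmatched.

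A pseudocount of 1 was added, and genes that reached 1 in at least 3 tumors entered limma 3.58.1 in R 4.3.3 (variance trend, no covariate, two-sided, Benjamini-Hochberg over 19667 genes). Exact permutation tests of single values were two-sided and used scipy 1.17.1 in Python 3.11.15. The procedure was tested on simulated data. Alternatives were another pseudocount, filter, normalization, variance model or covariate, a replicate block and leaving out each tumor. The covariates were the mean log2 value of the 12 white adipocyte markers or of the 7 leukocyte markers. Positions, exon lengths and overlaps came from GENCODE M21 (GRCm38), which held 94.9% of the symbols. Of 250 listed symbols, 6 had no row, and 1 further gene is not reported here. Genes named are *Tgm2*, the 10 members, and from each EMT list the 3 most abundant, any with adjusted p below 0.05 and any without overlap at an absolute log2 fold change of at least 1. The most abundant gene of each marker list, markers at 0 and the 5 genes most like *Cdh1*, *Epcam*, *Zeb1* and *Vim* are also named. Other genes were named after their values were seen. The members, lists and tests were chosen with earlier results of these data known.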

Additional observations from a re-analysis of the deposited data

How the results depend on the processing

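In all 17 alternatives 0 of the 10 EMT genes passed the limits in limma, with a smallest adjusted p of 0.483 (*Zeb1*), and *Snai2*, *Twist1*, *Twist2* and *Zeb1* kept their sign, as did *Tgm2*. The number of genes higher past the limits, 20, became 5 with a replicate block, 4 without a variance trend, 8 with a leukocyte covariate, 0 with a white adipocyte covariate and 2 to 14 with 1 tumor left out (2 without WT tumor 2, 7 without WT tumor 1, 13 without WT tumor 3, 11 without knockout tumor 1 or 2), and 0 lower genes became 0 to 1 (1 without WT tumor 1). With the white adipocyte covariate the log2 fold change was -0.76 for *Snai1*, -0.48 for *Zeb2*, 1.32 for *Cdh1* and 1.19 for *Epcam*, and with the leukocyte covariate -0.38, -0.14, 1.66 and 1.78. The white adipocyte covariate also moved *Snai2* to 0.82, *Twist1* to 0.19, *Twist2* to -1.53, *Zeb1* to 0.999, *Cdh2* to 0.71 and *Vim* to -0.70, with no change of sign. Array weights gave 0.40 for *Cdh1*, -0.17 for *Cdh2* and 0.21 for *Epcam*. With 1 tumor left out, the range was -0.20 to 0.52 for *Snai1*, 0.31 to 0.61 for *Snai2*, 0.40 to 0.79 for *Twist1*, -0.84 to -0.45 for *Twist2*, 0.23 to 0.62 for *Zeb1*, -0.11 to 0.33 for *Zeb2*, -1.22 to 1.21 for *Cdh1*, -0.38 to 0.29 for *Cdh2*, -0.31 to 0.14 for *Vim* and -2.08 to 1.14 for *Epcam*. With the white adipocyte covariate, list medians were 1.09 for epithelial regulators, 0.77 for junction genes, 0.61 for catenins and cadherins, -0.47 for mesenchymal genes and 0.29 for inducers. They were 0.45 for the 10 members, 0.38 for other transcription factors and -0.66 for intermediate filaments. The leukocyte covariate gave 0.32 for epithelial regulators, 0.50 for junction genes, -0.38 for mesenchymal genes and 0.34 for the 10 members. Array weights gave -0.01 for epithelial regulators, 0.13 for junction genes and -0.12 for mesenchymal genes. With 1 tumor left out, the list medians ranged from -0.56 to 0.47 for epithelial regulators, -1.15 to 0.51 for junction genes and -0.30 to 0.18 for mesenchymal genes. The ranges were 0.05 to 0.39 for other transcription factors, from just below 0 to 0.26 for catenins and cadherins and 0.05 to 0.21 for inducers. The cause of these changes was not tested.

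Leaving out 1 tumor at a time, which was added after seeing the data, left 0 to 3 of the 10 genes without overlap (3 without knockout tumor 2: *Snai2*, *Twist2* and *Zeb1*), against 17.4% to 25% of all tested genes. Without the 2 tumors farthest from the median, r was 0.949 for *Cdh1* with *Epcam*, -0.89 for *Snai1* with *Snai2* and -0.79 for *Twist1* with *Twist2*. Replicate numbers were checked for a pairing of the tumors. Deviations of same-numbered tumors correlated at -0.20, 0.28 and -0.31, and only the tumors numbered 2 correlated best with their own number. No test was made of these correlations, and they cannot exclude a pairing. With 3 tumors against 3, the exact tests could not reach 0.05, and the depth in whole reads could not be read from the deposited values.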
